A study of Mus musculus with 4 samples.

Results

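The nuclear respiratory chain subunits are the genes of the nucleus that encode subunits of complexes I to V of oxidative phosphorylation. They were taken by gene symbol (the Nduf, Sdh, Uqcr, Cyc1, Cox4 to Cox8 and Atp5 series), which gave 81 of the 21456 genes of the kidney cortex table: 34 for complex I, 4 for complex II, 9 for complex III, 17 for complex IV and 17 for complex V. A few of these symbols name tissue isoforms, paralogs or associated factors rather than the common subunit, and they are described apart. Cox4i1, Ndufa13, Cox8b and Cox8c were not analysed here.

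Single nuclei of mouse kidney cortex (strain C57BL/6J) were profiled in 4 genotypes with 1 library each: Sco2KO/KI, db/db, their combination Sco2KO/KI;db/db (called the combination below), and WT. Sco2 is a copper chaperone of the mitochondrion that serves the assembly of cytochrome c oxidase (complex IV). KO/KI stands for 1 knockout and 1 knock-in allele, and db/db mice carry a leptin receptor mutation that leads to obesity and diabetes. The sources used here do not give age, sex, the cells in which the Sco2 alleles act, or whether animals were pooled. Since each genotype is 1 library, no difference was tested, and every ratio describes these libraries.

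The values are normalised levels: UMIs scaled to 10000 per nucleus and averaged by cluster and library, with unspliced RNA included. The libraries held 1179 nuclei in Sco2KO/KI, 4578 in db/db, 5279 in Sco2KO/KI;db/db and 5152 in WT, as recovered from the lowest values, with mean UMI totals per nucleus of 5228, 2851, 2257 and 3344 in the same order. Clusters 0, 1, 2, 3 and 7 carried proximal tubule markers and form the proximal tubule-like class, with 706 nuclei in Sco2KO/KI, 2003 in db/db, 3015 in Sco2KO/KI;db/db and 2447 in WT. The tubule segments further on are named TAL-like (thick ascending limb), DCT-like (distal convoluted tubule) and CNT-like (connecting tubule). Cluster 7 rests on 30 nuclei in Sco2KO/KI;db/db. Sco2 itself was at 0.0216 in Sco2KO/KI, 0.011 in db/db, 0.018 in Sco2KO/KI;db/db and 0.034 in WT in this class, near 0 in every library, so its level does not check the labels.

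Complex I (NADH dehydrogenase), complex II (succinate dehydrogenase), complex III (cytochrome bc1) and complex IV pass electrons to oxygen, and complex V uses the resulting proton gradient to make ATP. Except for complex II, they combine a few subunits made from mitochondrial DNA with many made from nuclear genes. Proximal tubule, thick ascending limb and distal convoluted tubule drive salt and solute transport with this ATP and are rich in mitochondria, whereas podocytes and endothelium hold fewer.

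Promoters are shown for the 3 genes that later mark the ends of the genotype comparisons: Cox8a and Cox6a1, with the lowest ratios of db/db to WT among the members at a level of 0.5 or more, and Ndufs4, with the highest among them. Each is 250 bases before to 50 bases after the RefSeq start (GRCm38.p6, minus strand), for Cox8a chr19:7217567-7217866, for Cox6a1 chr5:115348909-115349208 and for Ndufs4 chr13:114388045-114388344. Capitals mark matches to 3 motifs searched on both strands: CGCATGCG for the factor NRF1, CCGGAAG for the ETS family (CTTCCGG on the other strand) and AAGATGGC for YY1 (GCCATCTT on the other strand).
Cox8a: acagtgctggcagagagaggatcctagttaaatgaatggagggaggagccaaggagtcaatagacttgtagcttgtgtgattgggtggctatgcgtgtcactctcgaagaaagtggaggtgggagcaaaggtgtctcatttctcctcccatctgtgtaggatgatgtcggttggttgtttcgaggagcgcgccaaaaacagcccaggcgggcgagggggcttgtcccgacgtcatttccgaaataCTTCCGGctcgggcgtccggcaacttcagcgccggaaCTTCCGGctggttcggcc
Cox6a1: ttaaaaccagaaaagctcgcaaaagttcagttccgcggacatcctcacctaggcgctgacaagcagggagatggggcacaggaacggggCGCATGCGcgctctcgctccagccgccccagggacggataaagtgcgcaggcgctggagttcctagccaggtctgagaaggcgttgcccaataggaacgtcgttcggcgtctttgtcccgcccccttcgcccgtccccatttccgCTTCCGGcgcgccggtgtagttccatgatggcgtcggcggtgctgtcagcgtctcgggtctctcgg
Ndufs4: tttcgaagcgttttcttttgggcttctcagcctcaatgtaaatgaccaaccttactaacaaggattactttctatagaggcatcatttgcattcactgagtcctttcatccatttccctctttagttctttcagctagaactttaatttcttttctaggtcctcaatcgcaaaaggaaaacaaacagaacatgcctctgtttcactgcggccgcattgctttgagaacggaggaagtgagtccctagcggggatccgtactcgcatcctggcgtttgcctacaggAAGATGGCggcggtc
Cox8a held the ETS letters at both -5 and 33, counted from the start, Cox6a1 held the NRF1 letters at -161 and the ETS letters at -16, and Ndufs4 held the YY1 letters at 36. Of 64 members with a RefSeq promoter, 16 held the ETS letters, 9 the NRF1 letters and 9 the YY1 letters, beside 9.93%, 2.07% and 3.19% of all 27025 genes in the table of promoters. No match overlapped another in these members. A match is a description of the letters and not a site.

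Along the nephron, nuclear respiratory chain transcripts had a lower summed level in podocyte-like and proximal tubule-like nuclei than in the named distal classes. The summed level of the 81 members was 68.0 in the DCT-like class of the Sco2KO/KI library, against 43.2 in its proximal tubule-like class. It was 53.8 against 38.7 in db/db, 63.3 against 49.9 in Sco2KO/KI;db/db and 70.9 against 47.1 in WT for the same pair of classes. The distal class was higher in each of the 4 libraries. In the TAL-like class the sum was 63.8 in Sco2KO/KI, 48.6 in db/db, 57.3 in Sco2KO/KI;db/db and 69.5 in WT. Among the 6 named classes with at least 20 nuclei in every library, the proximal tubule-like class ranked last in 3 libraries, and in db/db the endothelium-like class did, at 37.1. Of the clusters left unnamed, with at least 20 nuclei, cluster 14 was lower still in Sco2KO/KI (42.3). In Sco2KO/KI;db/db clusters 14 (43.1), 6 (47.0) and 10 (48.2) were lower, and in db/db clusters 17 (33.2) and 6 (35.5). Cluster 14 carries 7 of 8 thick ascending limb markers, as does cluster 4, which alone forms the TAL-like class. The podocyte-like class was at 29.7 in db/db, 42.3 in Sco2KO/KI;db/db and 45.4 in WT.

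**Figure D1:**
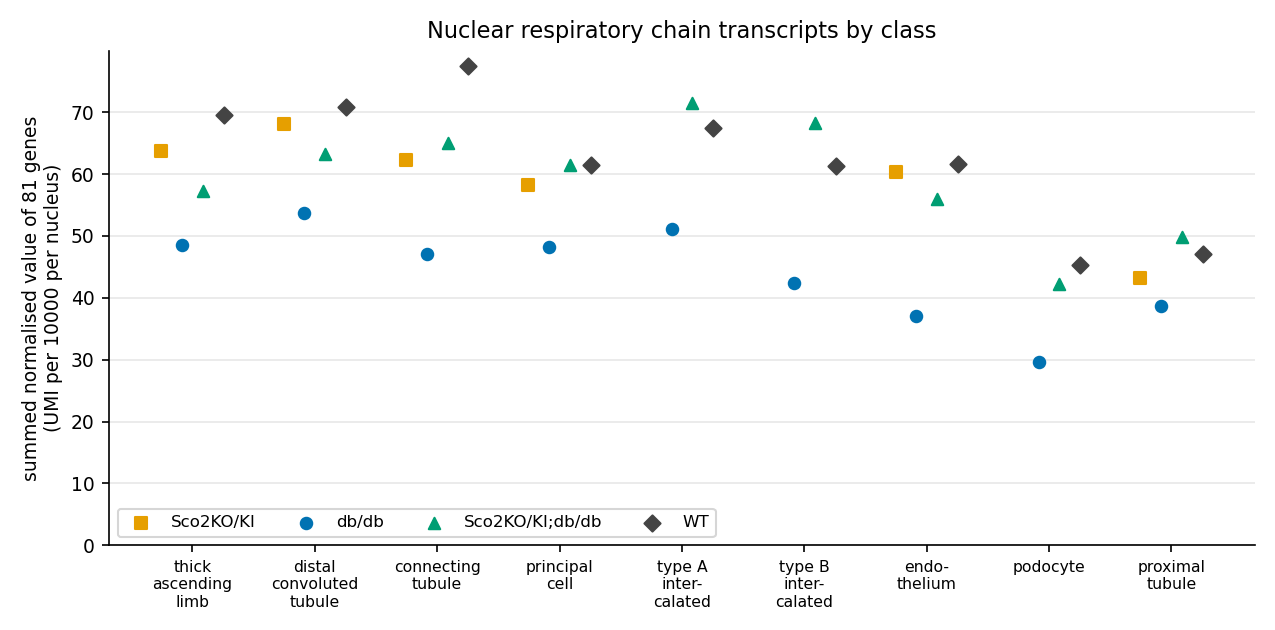
Summed normalised level of the 81 members (y, UMI per 10000 per nucleus) by class (x), with 1 symbol per library and library-class pairs under 20 nuclei left out. The db/db symbol is the lowest in every class shown, from 29.7 in the podocyte-like class to 53.8 in the DCT-like class.

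To compare classes within a library, log2 ratios to the proximal tubule-like class were taken (pseudocount 0.1) and averaged over libraries for members at a level of 0.5 or more in the mean of both classes. The median ratio was 0.47 over 43 members in the DCT-like class, with library medians of 0.32 to 0.60, and 31 members were positive in each of 4 libraries. It was 0.36 in the TAL-like class, 0.40 in the CNT-like class (whose cluster also carries 8 of 9 principal cell markers), 0.36 for principal cell-like and 0.22 for endothelium-like nuclei. Relative to the summed cytosolic ribosomal protein transcripts, the principal cell-like median was -0.17 and the endothelium-like one -0.73, so the direction of these 2 medians depends on the scale. Over all genes the median ratio was between -0.02 and 0.07 in these 5 classes. Unnamed clusters with distal markers had smaller medians. Cluster 14, with 7 of 8 thick ascending limb markers, was at -0.03. Cluster 12, with 6 of 6 connecting tubule and 4 of 6 distal convoluted tubule markers, was at 0.16.

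Few members passed 0.5 in every library. A member called higher by this rule occurred 6 times in the DCT-like class, beside 15.1% of all genes tested, 3 times in the TAL-like class (15% of all genes) and 4 times in the CNT-like class (16.2%). The counts for 43, 43 and 41 members are at or under that background. The broad, modest shift of the median and the small number of large ratios thus stand side by side. Proximal tubule markers, which mark RNA from the most numerous nuclei, had summed levels of 61.9 in Sco2KO/KI, 17.9 in db/db, 19.9 in Sco2KO/KI;db/db and 59.0 in WT in the DCT-like class. These markers also differed in the proximal tubule-like class itself, at 246.1, 174.5, 197.7 and 239.3 in the same order. Their part in the ratios was not tested.

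Subunits of the different complexes did not shift alike between classes. Complex II was close to the proximal tubule level in the TAL-like, DCT-like and CNT-like classes, with medians of 0.02, 0.02 and 0.04 over its members, while complex IV medians were 0.46, 0.56 and 0.52 in the same classes. Complex V medians were 0.36, 0.53 and 0.51. Sdhb, the iron-sulfur subunit of complex II, had levels of 1.20 in Sco2KO/KI, 0.869 in db/db, 1.21 in Sco2KO/KI;db/db and 1.20 in WT in the DCT-like class, against 1.07, 1.05, 1.21 and 1.06 in the proximal tubule-like class in the same order of libraries. Those values cross, and no library stands apart by more than 0.25 log2. Sdha, the flavoprotein subunit of complex II, was at 1.58, 1.76, 1.84 and 2.29 in the DCT-like class, against 1.22, 1.18, 1.50 and 1.37 in the proximal tubule-like class, higher in each library.

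**Figure D2:**
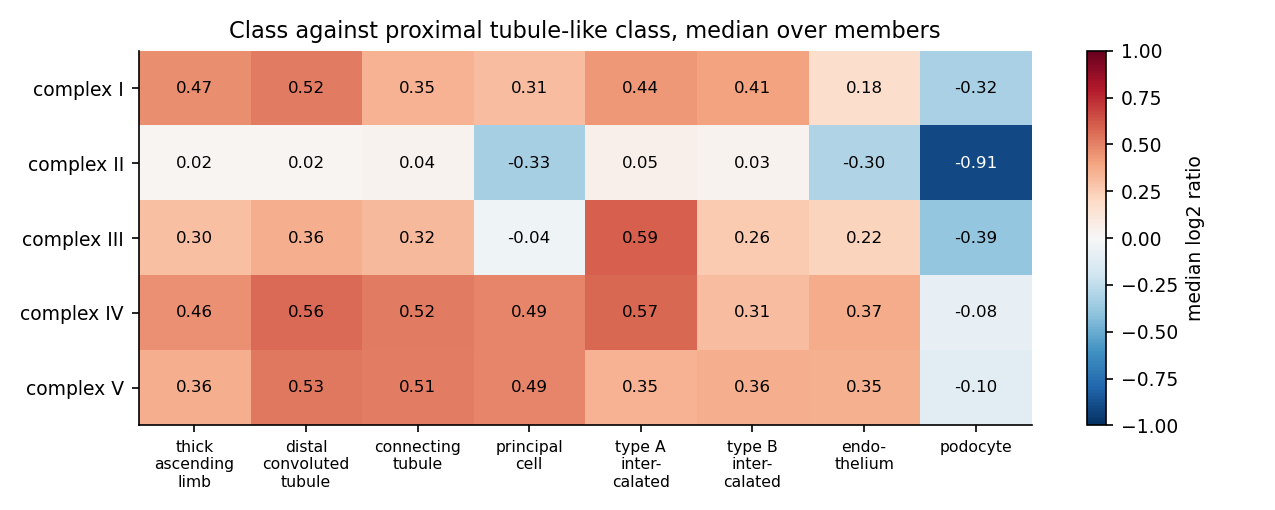
Median log2 ratio of each class to the proximal tubule-like class (columns) over the members of each complex at the level floor (rows), averaged over the libraries with at least 20 nuclei, which were 4 except for the intercalated cell-like and podocyte-like classes with 3. Complex II is near 0 in the tubular classes other than the principal cell-like one, at 0.02 to 0.05. It is lowest in the podocyte-like class, at -0.91, where the median over all genes was -0.23. Relative to ribosomal protein transcripts the principal cell-like and endothelium-like medians over all members are negative.

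The largest class ratios were those of single subunits. Cox7b, a small subunit of complex IV, was higher in the DCT-like class by 1.10 log2 (0.47 to 1.61 over libraries), with a mean level of 1.35 against 0.570. Atp5g2, 1 of 3 genes for subunit c of the ATP synthase ring, was higher by 0.88, 0.81 and 0.84 in the DCT-like, TAL-like and CNT-like classes, and it passed 0.5 in every library in each. Ndufs3, a core subunit of complex I, was higher by 0.76 in the DCT-like class. In the CNT-like class the 3 highest were Ndufa10 (0.92) and Ndufb7 (0.88), accessory subunits of complex I, and Uqcr11 (0.88), a small subunit of complex III.

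Endothelium-like nuclei split the members by gene. Sdhb was at 0.408 in Sco2KO/KI, 0.243 in db/db, 0.448 in Sco2KO/KI;db/db and 0.660 in WT there, against 1.07, 1.05, 1.21 and 1.06 in the proximal tubule-like class, a mean ratio of -1.20 log2 (-1.75 to -0.61). It was lower in all 4 libraries with no overlap. Ndufs3 (-0.71) and Atp5c1 (-0.65), the gamma subunit of ATP synthase, followed, while Cox6a1 (0.90), Ndufb7 (0.80) and Atp5e (0.74), the epsilon subunit of ATP synthase, were higher. Of 43 members 1 was called higher and 1 lower in each of 4 libraries, beside 21% and 20.7% of all genes. In the podocyte-like class, over the db/db, Sco2KO/KI;db/db and WT libraries, the median was -0.33 over 34 members, beside -0.23 over all genes. Library medians ran from -0.42 to 0.04, so the sign did not hold in every library. Ndufs1, the largest core subunit of complex I, was at 0.803 in db/db, 0.303 in Sco2KO/KI;db/db and 0.530 in WT, against 1.39, 1.31 and 1.35 in the proximal tubule-like class, a mean of -1.25. Ndufs3 (-1.18) and Sdhb (-1.12) were also low there, and Cox8a (0.57) was the highest. Intercalated cell-like nuclei, also compared over those 3 libraries, had medians of 0.44 (type A) and 0.31 (type B), led in type A by Atp5g1 (1.17), which also encodes subunit c, at 1.97 against 0.843.

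In the proximal tubule-like class, db/db nuclei had lower levels of most members than WT nuclei. Of 81 members, 39 reached a level of 0.5 in the mean of the 4 libraries. Over these 39 the median log2 ratio of db/db to WT was -0.27, with cluster medians of -0.35 to -0.17, beside 0.07 over all 3699 genes at the floor; relative to ribosomal protein transcripts, however, the sign turns and the median is 0.38. 8 members were positive and 31 negative. Called lower, by 0.5 or more with the same sign in all 5 clusters, were 11 members, beside 8.76% of all genes, and 0 were called higher, beside 8.73% of all genes. Relative to ribosomal protein transcripts the split turns, to 13 called higher and 1 lower (Cox8a), beside 72% and 1.65% of all genes, and the median over all genes is then 0.72. The 13 are other members than the 11 called lower above. The summed level of all 81 was 38.7 in db/db and 47.1 in WT. Over all 81 members the median was -0.18.

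By complex, the medians of db/db against WT were -0.04 for complex I (10 members at the floor), -0.20 for complex II (3), -0.54 for complex III (7), -0.41 for complex IV (7) and -0.40 for complex V (12). All 7 complex III members at the floor and 6 of 7 complex IV members were negative. Members called lower were 4 of complex III, 3 of complex IV, 4 of complex V and 0 of complex I at the floor, beside 8.76% of all genes. With the members under the floor included, the medians were -0.08, -0.17, -0.52, -0.22 and -0.20 for complexes I to V. Gene span, described below, also differs among the members. All genes at the floor had medians of -0.56 under 5 kb and 0.11 at 20 kb or more. The part of span in the contrast between complexes was not tested.

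Cox8a, the smallest subunit of complex IV, was at 1.32 in Sco2KO/KI, 0.560 in db/db, 1.46 in Sco2KO/KI;db/db, and 1.55 in WT. These levels rest on about 525, 339, 970 and 1223 UMIs, estimated from the recovered depths. The db/db library stands alone at the low end, by -1.35 log2 against WT, and was lower in all 5 clusters. Cox6a1, another complex IV subunit, was at 0.769 in Sco2KO/KI, 0.606 in db/db, 1.38 in Sco2KO/KI;db/db, and 1.17 in WT. Both single mutants were low here, db/db by -0.86 log2 and Sco2KO/KI by -0.56. Relative to ribosomal protein transcripts these ratios were -0.22 and -0.23, and centred on genes of similar span (gene length) -0.30 and -0.33. Ndufa4, the third complex IV member called lower in db/db, was at 0.676, 0.457 and 0.803, against 0.750 in WT. The combination of both mutations was close to WT for Cox8a and above it for Cox6a1.

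The rest of the 5 lowest were of complex V. Atp5d, the delta subunit of ATP synthase, was at 1.25 in Sco2KO/KI, 0.970 in db/db, 1.57 in Sco2KO/KI;db/db, and 1.67 in WT. Atp5a1, the alpha subunit, was at 1.41, 1.07 and 1.92, against 1.82 in WT in the same order. Atp5g3, which encodes subunit c, was at 0.732, 0.628 and 1.26, against 1.07 in WT. db/db was the lowest of the 4 libraries for each of these genes, with ratios to WT of -0.72, -0.71 and -0.68. Relative to ribosomal protein transcripts these ratios are between -0.08 and -0.04.

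Some members went the other way. Ndufs4, an accessory subunit of complex I needed for its stable assembly, was at 1.57 in Sco2KO/KI, 1.72 in db/db, 1.49 in Sco2KO/KI;db/db, and 1.34 in WT, and Atp5c1 was at 1.11, 1.19 and 0.935, against 1.06. Both had positive db/db ratios in all 5 clusters, of 0.34 and 0.15, short of the 0.5 used for a call. Other core subunits were close to WT: Ndufs1 was at 1.08 in Sco2KO/KI, 1.39 in db/db, 1.31 in Sco2KO/KI;db/db, and 1.35 in WT. Sdhb was at 1.07, 1.05 and 1.21, against 1.06 in WT, with the combination highest. Uqcrc1, a core subunit of complex III, was at 0.611, 0.657 and 0.801, against 0.708 in WT. By contrast Cyc1, cytochrome c1 of the same complex, was at 0.705, 0.544 and 0.951, against 0.876 in WT, and Atp5b, the catalytic beta subunit, at 2.41, 1.68 and 2.23, against 2.22 in WT. Under the floor, Ndufv1, the NADH-binding subunit, was at 0.301, 0.414 and 0.410, against 0.359 in WT, Uqcrfs1, the Rieske protein, at 0.195, 0.112 and 0.319, against 0.202, and Cox5a at 0.268, 0.287 and 0.222, against 0.365.

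**Figure D3:**
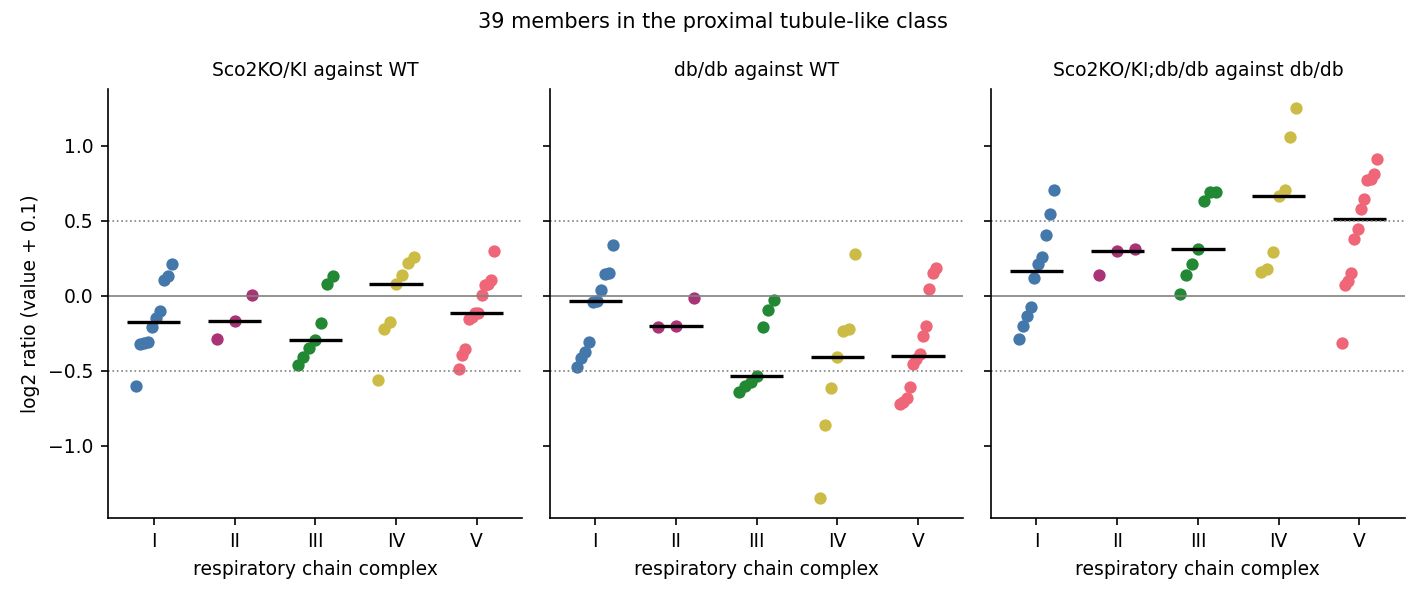
Log2 ratios in the proximal tubule-like class (y) of the 39 members at the level floor, grouped by complex (x), for 3 genotype comparisons, with bars at the median and dotted lines at 0.5 and -0.5. Complex IV members reach -1.35 in db/db against WT and 1.25 for the combination over db/db. Relative to ribosomal protein transcripts the all-member medians of the 3 panels change sign, to 0.19, 0.38 and -0.14. The medians over all genes are then 0.27, 0.72 and -0.53.

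The Sco2 alleles were also compared on the lean and on the db/db background. In Sco2KO/KI against WT the median over the 39 members was -0.15, beside -0.06 over all genes, with 15 positive and 24 negative. Relative to ribosomal protein transcripts the median was 0.19, beside 0.27 over all genes. Cluster medians ran between -0.21 and 0.07, so the sign did not hold in every cluster. Only Cox6a1 was called, lower by -0.56, beside 6.68% of all genes called lower and 4.62% called higher. Without cluster 7 it was at -0.45 and Atp5g3 was called in its place, and relative to ribosomal protein transcripts 4 other members were called higher and 0 lower, beside 21.8% and 1.3% of all genes. Atp5g3 (-0.49), Uqcr10 (-0.47), a small subunit of complex III, and Atp5d (-0.40) followed, and Ndufs4 was higher by 0.21. Complex IV, whose assembly Sco2 serves, had a median of 0.08 over its 7 members at the floor.

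In the combination against db/db the median was 0.31, beside -0.08 over all genes, and 34 of 39 were positive. Relative to ribosomal protein transcripts the median was -0.14, beside -0.53 over all genes. 15 members were called higher, beside 9.25% of all genes, and 0 lower, beside 9.03%. Relative to ribosomal protein transcripts 2 were called higher (Cox6a1 and Cox8a) and 5 lower, beside 2.49% and 51.3% of all genes. The highest were Cox8a (1.25), Cox6a1 (1.05), Atp5g3 (0.91), Atp5g1 (0.81) and Atp5a1 (0.78), and the lowest with 1 sign in every cluster was Atp5c1 (-0.32). This comparison and db/db against WT share the db/db library, so their mirrored values are not independent. Complex medians at the floor were 0.16 for complex I, 0.29 for II, 0.31 for III, 0.66 for IV and 0.51 for V. With the members under the floor included they were 0.10, 0.24, 0.45, 0.18 and 0.29 in the same order.

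The difference between the Sco2 effect in db/db and in lean mice was 0.49 in the median, beside -0.04 over all genes, with 31 of 39 positive. 16 members were called higher, beside 11.5% of all genes, and 0 lower, beside 9.46%. Relative to ribosomal protein transcripts the median difference was -0.29, beside -0.82 over all genes. On that scale 3 were called higher and 14 lower, beside 1.73% and 70.3% of all genes. Centred on genes of the same span, the lean and db/db medians had the same sign, at 0.03 and 0.12. The difference was 1.62 for Cox6a1, 1.47 for Cox8a, 1.40 for Atp5g3 and 1.15 for Uqcr10. It was not tested.

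Against Sco2KO/KI, the combination had a median of 0.26, and 5 members were called higher, beside 8.84% of all genes, and 0 lower, beside 6.3%. Among them were Cox6a1 (0.75), Atp5g3 (0.72), Ndufa10 (0.54) and Uqcr10 (0.51). Without cluster 7, whose 30 nuclei weigh as much as any other cluster, 3 members were called. Against WT the combination had a median of 0.09, with 1 member called higher, beside 9.25% of all genes, and 0 lower, beside 8.33%. The 1 called was Cox7b (0.57); without cluster 7 it was at 0.39 and 0 were called. Uqcrh, the hinge subunit of complex III, was the lowest, by -0.40.

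Other gene groups moved with these comparisons. Summed cytosolic ribosomal protein transcripts in the proximal tubule-like class were at 17.8 in Sco2KO/KI, 14.3 in db/db, 19.7 in Sco2KO/KI;db/db, and 22.4 in WT, lowest in db/db as the members were. Transcripts from mitochondrial DNA were at 261.1, 82.2 and 177.6, against 140.5 in WT, so these subunits were lowest in db/db and highest in Sco2KO/KI. Of 12 mitochondrially encoded subunits at the floor, 9 were called lower in db/db against WT (median -0.77), 11 higher in Sco2KO/KI against WT (1.06) and 12 higher for the combination over db/db (1.05). Of all genes, 8.76%, 4.62% and 9.25% were called in these directions. In Sco2KO/KI the transcripts of mitochondrial origin were high while the nuclear members were slightly low. A set of 6 abundant cytosolic transcripts outside respiration had medians of -0.97 (db/db over WT) and 0.77 (the combination over db/db). The part of RNA carried over from cytoplasm in the members' ratios was not tested.

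Regulators of the respiratory chain differed among themselves. Of 14 regulators 7 were at the floor, and 2 were called higher in db/db against WT, where their median was 0.23. Esrra, a nuclear receptor that acts on respiratory chain genes, was at 1.14 in Sco2KO/KI, 2.04 in db/db, 1.67 in Sco2KO/KI;db/db, and 1.16 in WT. Ppargc1b, a coactivator, was at 1.78, 2.54 and 1.94, against 1.69 in WT. Both were highest in db/db. Ppara, a nuclear receptor of fatty acid oxidation, was instead lowest in db/db and highest in the combination, at 12.1, 7.14 and 22.6, against 8.98 in WT. Of 22 factors for complex IV assembly 3 were at the floor, with 2 called higher in db/db against WT, beside 8.73% of all genes. They were Cox10, which makes haem O, at 0.559, 0.963 and 0.760, against 0.590 in WT, and Cmc1 at 0.553, 0.696 and 0.617, against 0.387. Tricarboxylic acid cycle enzymes had a median of 0.03 over 10 genes at the floor, with 0 called in either direction. Of all genes, 8.73% were called higher and 8.76% lower.

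The lower member levels in db/db were not limited to the proximal tubule-like class. The 6 other classes described here were TAL-like, DCT-like, CNT-like, principal cell-like, endothelium-like and podocyte-like. The medians of db/db against WT were -0.37, -0.37, -0.64, -0.30, -0.62 and -0.64 in that order, while the summed ribosomal protein transcripts were at -0.82, -0.92, -1.14, -0.54, -0.69 and -0.50, so that relative to them the sign turns in all but the podocyte-like class. For the combination against db/db, the members' medians were 0.25, 0.37, 0.43, 0.32, 0.53 and 0.67, beside 0.69, 0.37, 0.73, 0.51, 0.38 and 0.24 for the ribosomal protein transcripts. In TAL-like nuclei 18 of 46 members were called lower in db/db, beside 14.1% of all genes, and transcripts of mitochondrial DNA differed by -1.18 log2 there. These nuclei form only cluster 4, so a call did not need agreement between clusters, unlike in the proximal tubule-like class. Proximal tubule markers were at 18.2 in db/db and 54.0 in WT in those nuclei. They also differed in the proximal tubule-like class itself, with a sum of 174.5 in db/db and 239.3 in WT, of which Kap made 6.58 and 43.3. Their part in the members' ratios was not tested.

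Cox8a was the lowest in db/db of the libraries in each of the 9 named classes compared and in clusters 6, 10, 12 and 14. It was at 2.05 in Sco2KO/KI, 0.917 in db/db, 1.84 in Sco2KO/KI;db/db, and 4.32 in WT, in the endothelium-like class. In the TAL-like class it was at 1.90, 0.884 and 2.04, against 2.70 in WT. In the podocyte-like class it was at 1.01 in db/db, 2.74 in Sco2KO/KI;db/db, and 1.65 in WT. Ndufs4 showed no such order: it was at 2.86 in Sco2KO/KI, 2.88 in db/db, 2.16 in Sco2KO/KI;db/db, and 2.54 in WT, in the DCT-like class, and at 1.37, 0.987 and 0.934, against 1.43, in the endothelium-like class.

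**Figure D4:**
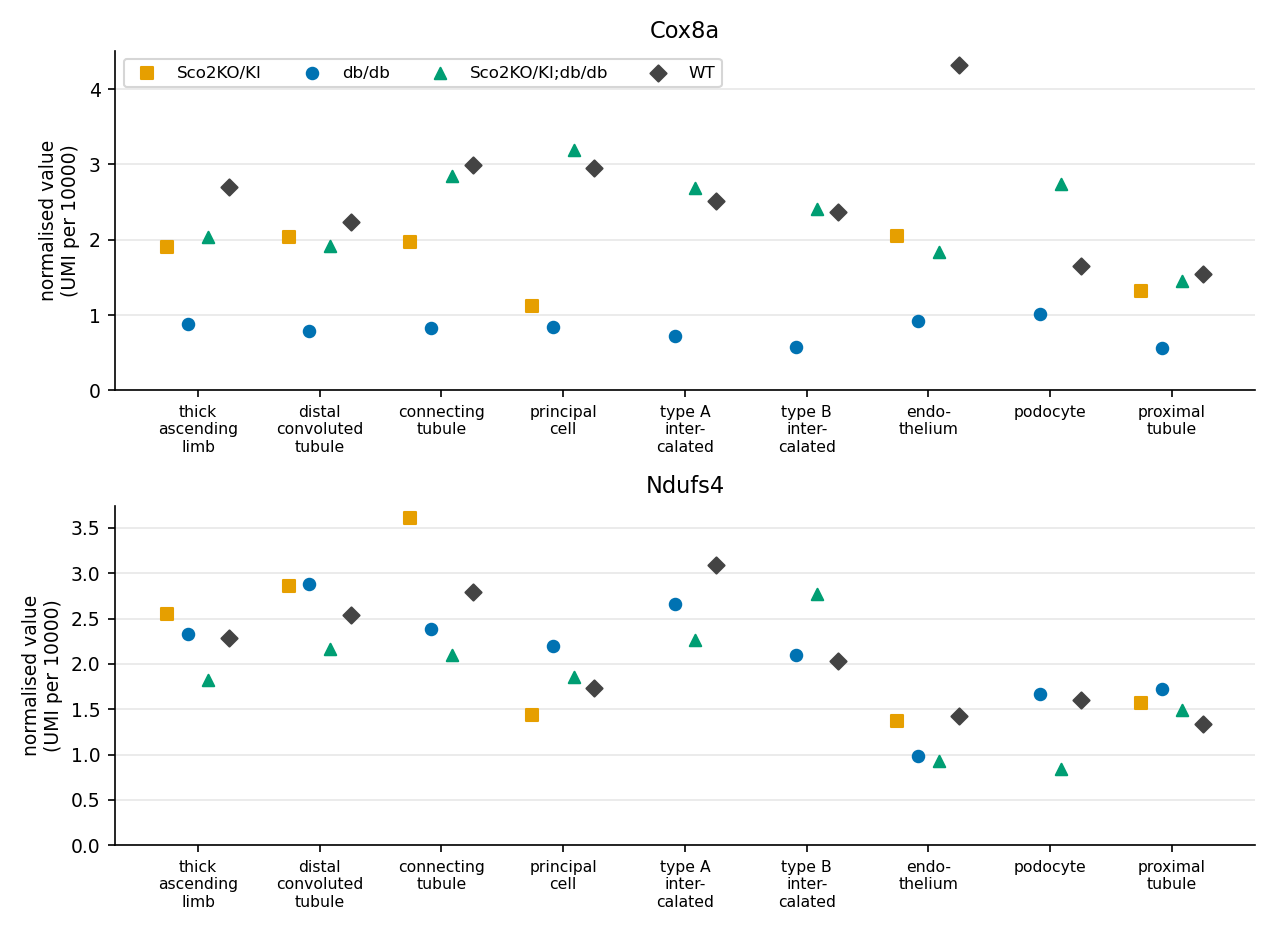
Normalised levels (y, UMI per 10000 per nucleus) of Cox8a (top) and Ndufs4 (bottom) by class (x), with 1 symbol per library and pairs under 20 nuclei left out. The Cox8a level in db/db is between 0.560 and 1.01 in these classes and is the lowest of the libraries shown in each, which Ndufs4 does not show.

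The members' response lined up with the length of the gene. Gene span is the distance between the first and last base of a gene in GENCODE vM21 on mm10, and it ran from 0.953 to 105.4 kb over 79 members with 1 gene model, with a median of 7.46 kb. Across the 39 members at the floor, span had a Spearman rho of 0.70 with the ratio of db/db to WT, 0.29 with that of Sco2KO/KI to WT and -0.74 with that of Sco2KO/KI;db/db to db/db. These are correlations across genes, which are not independent replicates, and share libraries. Cox8a (chr19:7215153-7217616) spans 2.46 kb and Cox6a1 (chr5:115345642-115348981) 3.34 kb, whereas Ndufs4 (chr13:114287795-114388258) spans 100.5 kb and Atp5c1 24.5 kb.

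The 12 members under 5 kb had a median ratio of db/db to WT of -0.59 and all 12 were negative, the 12 members of 5 to 10 kb had -0.33, the 7 of 10 to 20 kb -0.09 and the 8 of 20 kb or more -0.03. All genes at the floor in the same bins had medians of -0.56 (109 genes), -0.32 (151), -0.12 (325) and 0.11 (3081). For the combination against db/db the members' medians were 0.70, 0.33, 0.16 and -0.03, beside 0.57, 0.14, 0.11 and -0.11 for all genes. Centred on the median of all genes of the same bin, the median over the members was -0.05 for db/db against WT, 0.12 for the combination against db/db and 0.03 for Sco2KO/KI against WT, an alternative chosen after the data were seen. Over all 3666 genes with a span the rho was 0.32 for db/db against WT and -0.24 for the combination against db/db.

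**Figure D5:**
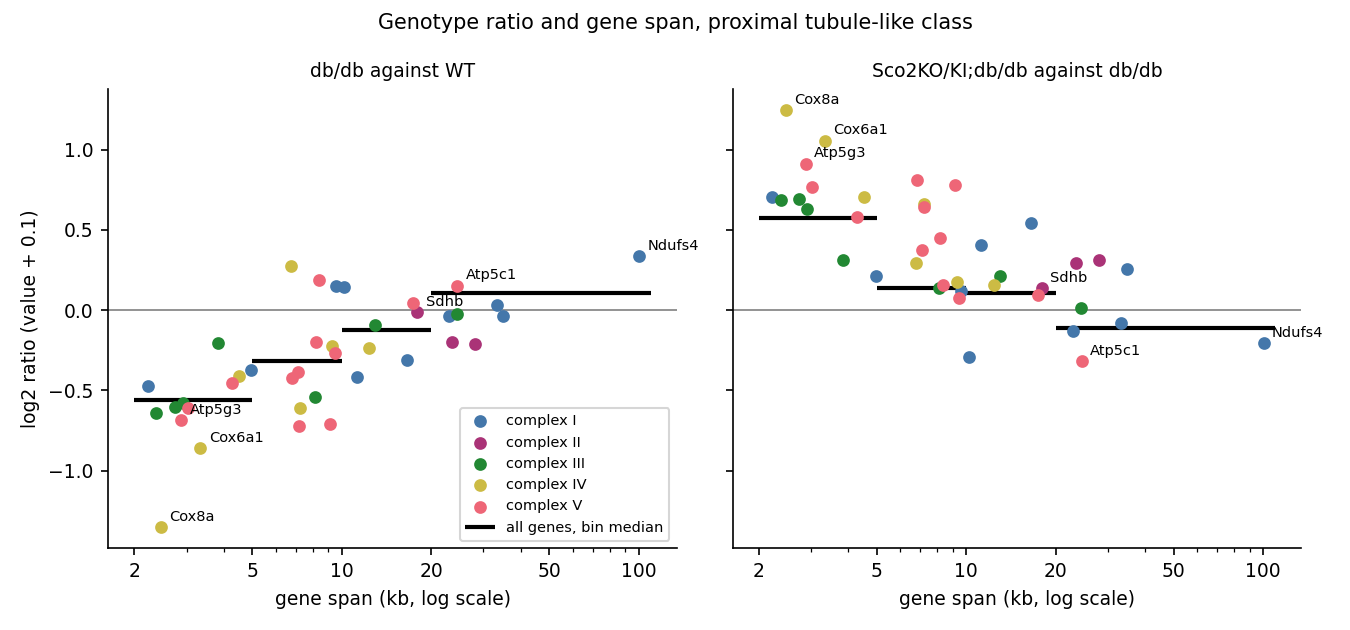
Log2 ratios in the proximal tubule-like class (y) against gene span in kb (x, log scale) for the 39 members at the floor, coloured by complex, with black bars at the median of all genes of each span bin. In db/db against WT the points lie between -1.35 (Cox8a) and 0.34 (Ndufs4), with members under 5 kb at a median of -0.59 beside -0.56 for all genes; relative to ribosomal protein transcripts the all-member medians change sign.

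Span also went with the class contrast. In the Sco2KO/KI and Sco2KO/KI;db/db libraries, which the db/db against WT ratio does not use, the endothelium-like to proximal tubule-like ratio had a rho of -0.67 with span and of -0.63 with the db/db to WT ratio over the 39 members. The members under 5 kb had a median endothelium-like ratio of 0.55 and those of 20 kb or more -0.31. Summed ribosomal protein transcripts were 42.7 in Sco2KO/KI and 33.5 in Sco2KO/KI;db/db in the endothelium-like class, against 17.8 and 19.7 in the proximal tubule-like class, higher in both. Over 72 columns with at least 20 nuclei, Cox8a had a rho of 0.79 with the summed ribosomal protein level, Cox6a1 0.74 and Atp5d 0.72, the 3 highest of the 39, against -0.24 for Ndufs4 and -0.28 for Ndufs3. Those columns share libraries and normalisation.

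Tissue isoforms were mostly at or near 0 in the proximal tubule-like class. Cox6b2, known as the testis isoform of Cox6b1, was an exception in the 2 libraries that carry db/db, at 0.132 (db/db) and 0.115 (their combination). Cox4i2 was at 0 in 3 libraries and at 0.0041 in Sco2KO/KI;db/db, and Cox7a1 was at 0.0074 or less in each. Cox6a2 was at 0.0462 in Sco2KO/KI, 0.0014 in db/db, 0.0519 in Sco2KO/KI;db/db, and 0.0288 in WT. Ndufa4l2, a paralog of the complex IV subunit Ndufa4, was at 0.0047 or less there but at 0.323 in Sco2KO/KI, 0.0325 in db/db, 0.108 in Sco2KO/KI;db/db, and 0.131 in WT, in cluster 6, which carries stromal and endothelial markers and stays unnamed. Cox7b2 was at 0.220 in db/db, 0.192 in Sco2KO/KI;db/db, and 0.0449 in WT, in the podocyte-like class. Of the common partners, Cox6b1, Cox7a2, Cox7b and Ndufa4 were at 1.23, 0.563, 0.556 and 0.676 in Sco2KO/KI, at 0.874, 0.351, 0.557 and 0.457 in db/db and at 1.01, 0.626, 0.722 and 0.803 in Sco2KO/KI;db/db, against 1.04, 0.495, 0.445 and 0.750 in WT. Of the subunit c genes, Atp5g1 was at 0.862 in Sco2KO/KI, 0.579 in db/db, 1.15 in Sco2KO/KI;db/db, and 0.801 in WT. Atp5g2 was at 0.789, 0.632 and 0.683, against 0.781 in WT, and both were lowest in db/db. Atp5o was counted under 2 rows, each under 0.13, and its values are uncertain.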

How the data were processed

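The deposited values are a signal: per gene, the authors' mean over the nuclei of a cluster in a library of UMIs scaled to 10000 per nucleus, made with Cell Ranger and Seurat on mm10, per the submitters' processing notes (no versions stated there). The scaling was read from the deposited values, since each of 83 columns totals 10000. 25 rows named by dates were left out (at most 0.307% of a column). 0 columns were unassigned. Clusters were named from marker lists. Numbers of nuclei and UMI totals were recovered from single-UMI values, a step chosen after the data were seen. Tested on simulated data, it gave the exact number of nuclei in 10 of 10 columns, but no column under 20 nuclei was simulated. Numbers for such small columns can be too low. Cluster 20 of Sco2KO/KI was given 1 nucleus, though its levels of 0.654 (Atp5c1) and 1.26 (Atp5g2) are not multiples of 1 step. The limit of 20 nuclei rests on these recovered numbers. UMI totals are estimates, so no counting interval is given. The sources used here do not give doublet treatment or filters, and barcodes were not analysed here.

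Log2 ratios used a pseudocount of 0.1, which understates the change of low genes. A class is the unweighted mean of its clusters. The floor for genotype comparisons was a level of 0.5 in the mean of all libraries of the class. For class comparisons it was 0.5 in the mean of both classes over the libraries compared. A call needed 0.5 log2 with 1 sign in every cluster, or 0.5 in every library for classes. Pairs under 20 nuclei were left out. Genotypes, with 1 library each, were not tested. Classes, compared within 4 libraries, were not tested either, because the clusters were formed from the same genes. Named genes were up to 5 highest and 5 lowest members per genotype comparison with 1 sign in every cluster, 3 highest and 3 lowest per class, fixed core subunits and isoform pairs. The values of 1 gene that this rule names are not reported here. The members and lists were chosen with earlier results of these data known. Gene positions are GENCODE vM21 on mm10, and 23 members overlap a gene on the other strand and 3 one on the same strand; the sources used here do not say whether strand was counted. Alternatives were other pseudocounts, floors, folds and scalings, weighting by nuclei, leaving out a cluster or a library, and centring on genes of the same span. Python 3.11.15, pandas 2.3.3 and NumPy 2.4.6 were used.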

Additional observations from a re-analysis of the deposited data

Results flagged for a closer look

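Cox6a1 went in opposite directions with the Sco2 alleles in the proximal tubule-like class: higher by 1.05 log2 for the combination over db/db and lower by -0.56 in Sco2KO/KI against WT (-0.45 without cluster 7), a difference of 1.62. The median over the 39 members at the floor also went in opposite directions, by 0.31 and -0.15, with a difference of 0.49. The lean median ran between -0.21 and 0.07 over clusters. Centred on genes of the same span the medians were 0.12 and 0.03, with 1 sign, and relative to ribosomal protein transcripts both signs turn, to -0.14 and 0.19. On that last scale the medians over all genes were -0.53 and 0.27. Each background has 1 library per genotype, so neither difference was tested.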

How the results depend on the processing

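No paired analysis was possible because each genotype has 1 library and the labels give no pairing of animals. Class ratios were taken within each library. The alternatives were run on the medians and on the counts of called members, and a median that moved by less than its SD over clusters or libraries is not listed. Scaling mattered most: relative to ribosomal protein transcripts the medians were 0.19 for Sco2KO/KI against WT, 0.38 for db/db against WT, -0.14 for the combination against db/db and -0.29 for the difference of the Sco2 effect, with 4, 14, 7 and 17 members called. Over all genes the medians on that scale were 0.27, 0.72, -0.53 and -0.82. Most calls on that scale were of other members and in the other direction: 4 higher and 0 lower, 13 higher and 1 lower, 2 higher and 5 lower, and 3 higher and 14 lower. Of the calls reported above, 0, 1, 2 and 3 remained, with their direction kept. The combination had 2 calls against Sco2KO/KI and 3 against WT. The class medians on that scale were 0.15 (thick ascending limb-like), 0.079 (connecting tubule-like), -0.17 (principal cell-like) and -0.73 (endothelium-like). Centred on genes of the same span, chosen after the data were seen, the medians were 0.029 for Sco2KO/KI against WT, -0.046 for db/db against WT, 0.12 for the combination against db/db, 0.10 for the difference of the Sco2 effect, 0.18 for the principal cell-like class (0.36 as reported) and -0.016 for the endothelium-like class (0.22). The calls on that scale were 2 in Sco2KO/KI against WT (both higher, where the 1 reported was lower), 2 in db/db against WT, 5 in the combination against db/db, 3 in it against Sco2KO/KI and 7 for the difference. Centred on all genes, 2 members were called in the combination against Sco2KO/KI.

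For Sco2KO/KI against WT (1 call), the count was 3 with a pseudocount of 0.01, 0 with one of 0.5, with a floor of 1.0 or a fold of 1.0, 2 with no floor or without cluster 0, and 5 without cluster 2. For db/db against WT (11 calls) it was 4 with a pseudocount of 0.5, where the median was -0.18, 3 with a floor of 1.0 and 1 with a fold of 1.0; with no floor the median was -0.18. For the combination against db/db (15 calls) it was 6 with a pseudocount of 0.5, 3 with a floor of 1.0 and 2 with a fold of 1.0. Against Sco2KO/KI (5 calls) it was 2, 0 and 0 for the same settings, 8 with no floor and 3 without cluster 7. Against WT (1 call) it was 0 for the same settings and without cluster 7, 5 with no floor and 2 without cluster 3. For the difference of the Sco2 effect (16 calls) it was 3 with a floor of 1.0 and 7 with a fold of 1.0. The principal cell-like median was 0.25 with a pseudocount of 0.5, 0.23 with no floor and 0.48 with a floor of 1.0.

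Leaving out 1 library in turn, the class medians ranged from 0.31 to 0.44 (thick ascending limb-like), 0.42 to 0.53 (distal convoluted tubule-like), 0.35 to 0.46 (connecting tubule-like), 0.31 to 0.38 (principal cell-like) and 0.16 to 0.30 (endothelium-like). In all, 183 of the values recomputed for medians and counts stayed within these limits and 52 did not. In 5 counts most calls were in the other direction than those reported, and the cause was not tested. Depth limits members under the floor, and 2 rows of Atp5o and members that overlap another gene cannot be told apart from it.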

Other observations

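2 members were below the level floor and set WT or the lean libraries apart; both were chosen after their values were seen. Atp5s, a gene related to the coupling factor of ATP synthase that is not a subunit of the enzyme, was at 0.260 in Sco2KO/KI, 0.265 in db/db, 0.243 in Sco2KO/KI;db/db, and 0.0976 in WT, in the proximal tubule-like class, from about 103, 160, 162 and 77 UMIs. WT was the lowest of the 4 libraries and each mutant was higher than WT in all 5 clusters. The gene lies at chr12:69724950-69744660 on mm10.

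Cox6b2, known as the testis isoform of Cox6b1, was at 0.0129 in Sco2KO/KI, 0.132 in db/db, 0.115 in Sco2KO/KI;db/db, and 0.0216 in WT, in the same class, from about 5, 80, 77 and 17 UMIs. The 2 libraries that carry db/db were the higher ones. In cluster 6 it was at 0.168 in Sco2KO/KI, 0.281 in db/db, 0.267 in Sco2KO/KI;db/db, and 0.0392 in WT. In the cycling cluster it was at 2.96 in db/db, 3.01 in Sco2KO/KI;db/db, and 0.354 in WT. The recovered numbers of nuclei there were only 3, 20 and 13. Not every class had this order. Cox6b2 was at 0.208 in Sco2KO/KI, 0.0895 in db/db, 0.133 in Sco2KO/KI;db/db and 0.0349 in WT in the DCT-like class. In the same order of libraries, it was at 0, 0.113, 0 and 0.111 in the endothelium-like class. In the CNT-like class it was at 0.0653, 0.0397, 0.0102 and 0.0567. The TAL-like class, at 0, 0.152, 0.0736 and 0.036, kept the order.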
